A study of Mus musculus with 2 samples.

Results

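Accessible chromatin was examined around 10 target genes of the transcription factor p53 that act in growth arrest and stress control: Cdkn1a, Ccng1, Btg2, Plk2, Gadd45a, Sesn1, Sesn2, Phlda3, Zmat3 and Gdf15. They are 10 of 22350 annotated protein-coding genes, and were chosen by name, with earlier results of these data known. DNase I hypersensitive sites (DHS) are stretches that the nuclease DNase I cuts readily because they are not packed in nucleosomes. They were mapped in splenic B cells of Trp53+/+ mice on the C57/Bl6 strain, 8 weeks of age and given mock treatment in place of irradiation. All cells thus carried intact p53 that had not been activated by irradiation. The series holds 1 DNaseI library and 1 input library from such cells, which were enriched with beads against the B cell surface protein B220, so that some other cells may have remained. The number of animals behind the library is not given in the sources used here. Of the 47542 DHS in the list, 105 overlapped the body of a member gene or the 50 kb on either side, and these 105 are described here.

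p53 is held at a low level in unstressed cells by the ubiquitin ligase Mdm2 and is stabilised after DNA damage. It then binds DNA as a tetramer at response elements made of a pair of decamers, and raises transcription of genes that halt the cell cycle, adjust metabolism or kill the cell. An element that lies in accessible DNA before the damage can be reached without prior removal of nucleosomes, whereas other elements lie in nucleosomal DNA that p53 is also known to bind. The study mapped DHS in unstressed B cells as one of the chromatin features by which p53 binding sites were classed. The question here is which stretches of these 10 loci were accessible before the damage, and whether the response elements lay inside them.

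With 1 library there was no replicate, so no value has an error and no test was possible. Each peak carries a score given by the authors, with a range from 5.05 to 619 and a median of 32.65 over the list. The scale of the score is not stated, and scores are compared within this list only. The depth is unknown, so a stretch without a DHS is one where none was called. In a bulk sample, access in few cells and weak access in many cannot be told apart. The cell type was checked by promoter DHS of marker genes, a promoter being 5 kb upstream to 2 kb downstream of a transcription start site (TSS). All 6 B cell markers had one, with a DHS over a TSS in all 6. Of the other markers, Cd5 had one among 6 T cell genes, Itgam and Elane among 6 myeloid genes, and Klrb1c among 3 genes of NK cells. A DHS over a TSS was found in 0 of the T cell, myeloid and NK cell genes. Cd5 is also known from a subset of B cells.

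Response elements were searched as 2 adjacent decamers, each made of 3 purines, a C, 2 bases that are A or T, a G and 3 pyrimidines. At most 2 mismatches over the 20 bases were allowed, and none at the C and G. The pattern reads the same on both strands. In the windows of the 10 genes 34 elements were found, at least 1 in every window. An element occurred in the windows of 73.9% of all protein-coding genes. The elements closest to the pattern, and those inside a DHS, carry the comparison that follows and are therefore shown, 5′ to 3′ on the strand of the gene, with the 4-base core of each decamer in capitals. Positions are on mm9. The first group holds the elements with at most 1 mismatch that lay outside every DHS.
Zmat3, chr3:32263253-32263272: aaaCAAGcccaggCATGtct
Zmat3, chr3:32269073-32269092: gagCAAGtctgggCTTGtta
Cdkn1a, chr17:29227873-29227892: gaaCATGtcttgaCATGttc
Gdf15, chr8:73155865-73155884: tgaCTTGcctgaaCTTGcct
Btg2, chr1:135997691-135997710: gatCAAGcccgggCTTGttc
Sesn1, chr10:41659959-41659978: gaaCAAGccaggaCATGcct
Sesn1, chr10:41659969-41659988: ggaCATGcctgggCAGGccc

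The second group holds the 8 elements inside a DHS. The first 3 of these have 1 mismatch and the others 2.
Ccng1, chr11:40568964-40568983: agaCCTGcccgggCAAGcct
Ccng1, chr11:40568438-40568457: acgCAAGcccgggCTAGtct
Cdkn1a, chr17:29215984-29216003: aggCAAGcccgggCAAGgcc
Ccng1, chr11:40547658-40547677: ggaCAAGccctggCTTGcta
Plk2, chr13:111184602-111184621: gatCTTGcttagaCTTGttg
Sesn1, chr10:41613297-41613316: aaaCAGGcccaaaCTTGgtt
Sesn1, chr10:41653218-41653237: gggCCTGtctgagCATGcta
Btg2, chr1:135949749-135949768: tagCTTGtttatgCTAGttc

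The Zmat3 element at position 32263253 was the 1 element without a mismatch, and it lay outside every DHS. Of the elements without mismatch on chromosomes 1 to 19 and X, 1.71% were inside a DHS. The pair of elements near Sesn1 overlap by a decamer and are therefore not separate sites. Of the 34 elements 23.5% were inside a DHS. Over all windows of protein-coding genes this share was 2.74% of 18111 elements, and over chromosomes 1 to 19 and X it was 2.04%. DHS covered a median of 7.04% of the windows of the 10 genes, against 3.06% of the windows of all protein-coding genes. How far this higher coverage accounts for the higher shares was not tested. Among the 10 elements with at most 1 mismatch 3 were inside a DHS, against 2.48% over the windows of protein-coding genes and 1.79% over these chromosomes. With a spacer of 0 to 15 bases allowed between the decamers and at most 1 mismatch, 8 of 76 elements, or 10.5%, were inside a DHS, against 2.91% over the windows of protein-coding genes and 2.27% over these chromosomes. The 76 include the 10 elements without spacer given above, and the 8 include the 3 of them inside a DHS. Of the 8, 5 lay in a DHS of the gene's own promoter, 2 each at Ccng1 and Gadd45a and 1 at Plk2. The windows held 2.88 elements without spacer per 100 kb, against 1.10 in all windows of protein-coding genes. With at most 1 mismatch the values were 0.846 and 0.194 per 100 kb. Genes are in part known as p53 targets through such elements, so that the density is no independent property of the 10 genes. A match to the pattern is a description of sequence and does not show binding.

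All 10 genes had a DHS in the promoter window, and in 9 of them a DHS covered a TSS. The background shares were 57.0% of protein-coding genes for a promoter DHS and 46.6% for a DHS over a TSS. At or above the median score of the list 9 genes had a promoter DHS, Phlda3 being the other, against 50.3%. A DHS covered the first TSS, the one farthest upstream, in 8 of the 10 genes, against 40.6%. In total the 10 promoters held 19 DHS. Their scores ran from 8.44 to 446 with a median of 90.7, against a median of 53.3 over 22529 promoter DHS of the list. The highest promoter score of each gene had a median of 206 over the 10 genes and of 101 over the 12747 protein-coding genes with a promoter DHS. It was above the latter in 7 genes, and below it in Phlda3, Zmat3 and Gadd45a. In Sesn2 and Gdf15, which are among the 7, the DHS with the highest promoter score covered no TSS of the gene. Of the 10 promoters 7 were CpG-rich, a class that made up 38.5% of protein-coding genes and of which 85.5% had a promoter DHS. The CpG-rich promoters include those of Phlda3, Zmat3 and Gadd45a, so that the 3 lowest scores were all at CpG-rich promoters. The other 3, those of Cdkn1a, Ccng1 and Gdf15, belong to a class of which 39.2% had a promoter DHS. The class was set from the sequence around the first TSS, which no DHS covered in Cdkn1a and Gdf15. The promoter DHS of Cdkn1a, over its second TSS, had 59.3% GC and CpG at 0.682 of the frequency this content gives. These values are above the limits of the CpG-rich class, but were taken over the DHS. Ccng1, with 53.4% GC and CpG at 0.603, missed the limit for GC alone.

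**Figure D1:**
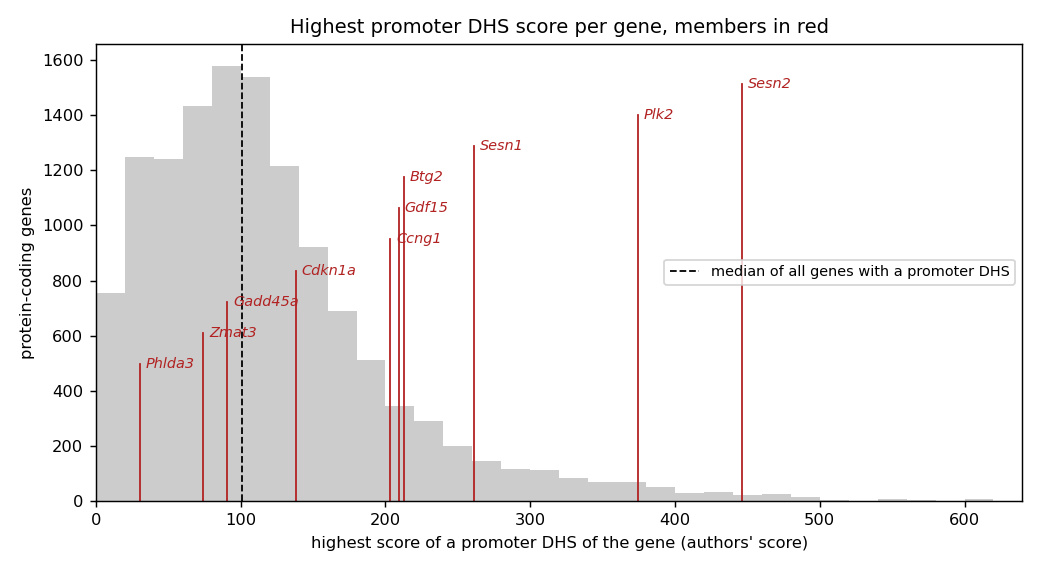
Histogram of the highest promoter DHS score (horizontal axis, authors' score) over the 12747 protein-coding genes with a promoter DHS (vertical axis, number of genes). Red lines mark the 10 genes, of which 7 lie to the right of the dashed median of 101, with Sesn2 at 446 and Phlda3 at 30.4 as the ends of their range (the height of a red line has no meaning).

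The genes of cell cycle arrest are described first. Cdkn1a encodes p21, an inhibitor of cyclin-dependent kinases and the best known arrest gene under p53. The gene (ENSMUSG00000023067.7) lies on the plus strand of chromosome 17 and has 3 annotated TSSs. No DHS was called over its first TSS or within the 5 kb before and 2 kb after it. Its promoter DHS, 3034 bp wide with a score of 138, covered the second TSS, 2793 bp downstream, and its centre was 3779 bp downstream of the first. The score was higher than the top score of 69.8% of genes with a promoter DHS. The element 41 bp upstream of the first TSS had 1 mismatch, and the nearest DHS began 2293 bp away. The 250 bases before that TSS, at chr17:29227674-29227923, are shown with the element in capitals.
Cdkn1a, chr17:29227674-29227923: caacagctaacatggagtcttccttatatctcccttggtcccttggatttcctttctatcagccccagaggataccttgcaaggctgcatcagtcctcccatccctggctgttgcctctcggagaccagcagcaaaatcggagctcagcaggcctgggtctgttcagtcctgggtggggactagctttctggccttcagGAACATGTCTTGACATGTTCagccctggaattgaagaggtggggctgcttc

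The study tested p53 binding at Cdkn1a by ChIP-qPCR with a primer pair that was located here in mm9. Both primers matched without mismatch and span 149 bp, at chr17:29227855-29228003, from 69 bp before to 79 bp after the first TSS.
Forward primer: tagctttctggccttcagga
Reverse primer: ggggtctctgtctccattca

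The amplicon contains the element, overlapped no DHS, and lay 2182 bp from the nearest one. A further element with 1 mismatch was 11930 bp upstream of Cdkn1a, inside a DHS with a score of 20.3 that belongs to the promoter window of Gm16197. This score was higher than that of 30.6% of the list. Of the 6 distal DHS around Cdkn1a, meaning DHS outside the promoter window of every annotated gene, the highest had a score of 55.03 and lay 46045 bp upstream, nearer to Srsf3.

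Ccng1 encodes cyclin G1, which is known to act on Mdm2 through the phosphatase PP2A. The gene (ENSMUSG00000020326.7) lies on the minus strand of chromosome 11. One DHS of 1362 bp with a score of 203 covered its first TSS, with the centre 192 bp downstream. Ccng1 was the 1 gene of the 10 in which an element with at most 1 mismatch and no spacer lay in a DHS of its own promoter, as in 0.125% of protein-coding genes. It had 2 such elements, centred 161 bp upstream and 365 bp downstream of the first TSS, the latter in an intron. Its second TSS, 1373 bp downstream, was not covered.

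Cdkn1a and Ccng1 thus had an element with 1 mismatch shortly before the first TSS, and differed in whether a DHS was called there. The window of Ccng1 had the fewest DHS of the 10, with 4. Of these, 2 were at the promoters of Nudcd2 and Hmmr, where the DHS at Nudcd2 had a score of 169 and held an element with 2 mismatches. The 1 distal DHS had a score of 16.9 and lay 8633 bp upstream.

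Plk2 encodes a polo-like kinase that takes part in centriole duplication. The gene (ENSMUSG00000021701.7) lies on the plus strand of chromosome 13. The DHS over its TSS was 1965 bp wide with a score of 374, higher than the top score of 98.3% of genes with a promoter DHS. An element with 2 mismatches lay inside it, 640 bp upstream of the TSS. Another, 2152 bp upstream, lay in the gap between this DHS and one with a score of 34.4, at 60 bp from the latter. The 250 bases before the TSS, at chr13:111185002-111185251, are shown because they hold a CRE, the binding site of CREB (TGACGTCA), and 2 GC boxes (GGGCGG, on either strand), which are in capitals.
Plk2, chr13:111185002-111185251: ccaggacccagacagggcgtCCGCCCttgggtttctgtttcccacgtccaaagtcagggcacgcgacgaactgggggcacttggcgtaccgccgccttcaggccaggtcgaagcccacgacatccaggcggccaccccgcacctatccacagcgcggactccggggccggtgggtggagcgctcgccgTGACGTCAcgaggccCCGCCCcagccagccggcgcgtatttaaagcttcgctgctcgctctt

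A CRE was present in the central 300 bp of 1.07% of all promoter DHS, and a GC box in 31.2%. Among the 19 promoter DHS of the 10 genes a CRE was found in 1 and a GC box in 7. Of 7 distal DHS around Plk2 the highest, with a score of 71.9, lay 25990 bp upstream and formed a pair with a DHS of score 53.2.

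Btg2 encodes an antiproliferative protein that recruits the CCR4-NOT deadenylase to mRNAs, and is also a primary response gene of lymphocytes. The gene (ENSMUSG00000020423.6) lies on the minus strand of chromosome 1. A DHS of 2675 bp with a score of 213 covered its TSS, and a weaker one with a score of 16.1 was centred 4583 bp upstream. Btg2 had the most distal DHS of the 10 genes, with 14. This number was higher than in 98.8% of protein-coding genes, and DHS covered 19.9% of the window. They lay on both sides of the gene. Upstream, a DHS at 14373 bp had a score of 311, above that of the promoter, and one at 20189 bp had a score of 149. Downstream of the TSS, DHS at 15598 bp and 18465 bp had scores of 232 and 148.

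Of the 5 elements around Btg2, 1 with 2 mismatches was inside a DHS, that with a score of 55.7 at 25554 bp downstream of the TSS. The element with 1 mismatch, 22004 bp upstream, lay 855 bp from the DHS with a score of 149. None of the 5 was in the promoter window.

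Gadd45a encodes a small stress protein that binds PCNA and p21 and activates the kinase Map3k4. The gene (ENSMUSG00000036390.6) lies on the minus strand of chromosome 6. All of its 5 annotated TSSs were covered by 1 DHS of 2284 bp with a score of 90.7. The DHS also overlapped E230016M11Rik, whose start lies within 1 kb of that of Gadd45a. The 4 distal DHS were all upstream, and the strongest of them, 2406 bp wide with a score of 59.7, was centred 19313 bp from the first TSS. The 1 element without spacer in the window was 5538 bp upstream and 4722 bp from the nearest DHS. With a spacer allowed, Gadd45a had 6 elements. Of these, 2 with 1 mismatch that overlap each other lay inside its promoter DHS, with spacers of 4 and 10 bases, and 4 were outside every DHS.

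**Figure D2:**
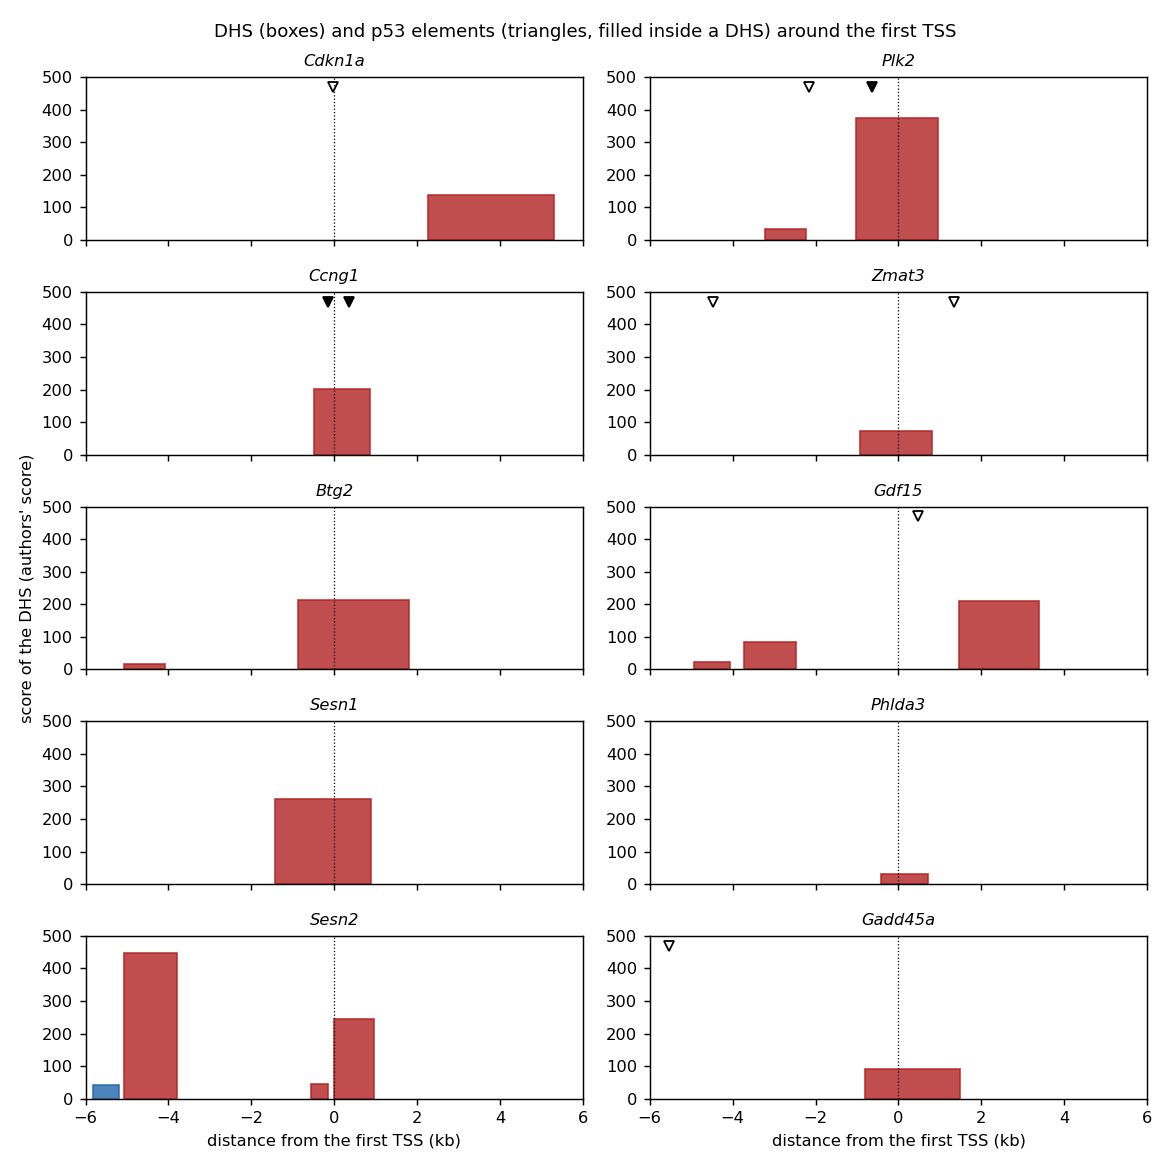
DHS (boxes, height is the authors' score) and p53 elements (triangles) within 6 kb of the first TSS of each gene, with the distance in kb on the horizontal axis in the direction of transcription, red for promoter DHS and blue for distal DHS. Filled triangles lie in a DHS, at Ccng1 and Plk2. Open triangles lie outside, at Cdkn1a, Zmat3, Gdf15 and Gadd45a and, for another element, at Plk2.

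The sestrins and Phlda3 act on growth signals. Sesn1 and Sesn2 encode proteins that restrain the growth kinase complex mTORC1, and Sesn2 is known as a leucine sensor. Sesn1 (ENSMUSG00000038332.6, plus strand of chromosome 10) has 2 TSSs that lie 76.9 kb apart, and both were covered by a DHS. The DHS at the first was 2308 bp wide with a score of 261, and that at the second 1382 bp wide with a score of 172. The other 2 promoter DHS covered no TSS and were narrower, at 390 bp and 412 bp. They lay in introns 4200 bp before and 1247 bp after the second TSS, with scores of 23.2 and 8.44. The latter was the lowest score among the 19 promoter DHS of the 10 genes. The DHS at the first TSS cannot be assigned to Sesn1 alone, since a TSS of Cep57l1 lies within 1 kb. The 250 bases before the first TSS, at chr10:41530130-41530379, and before the second TSS, at chr10:41606995-41607244, are shown together because both hold GC boxes and a CCAAT box (CCAAT, on either strand), which are in capitals.
Before the first TSS: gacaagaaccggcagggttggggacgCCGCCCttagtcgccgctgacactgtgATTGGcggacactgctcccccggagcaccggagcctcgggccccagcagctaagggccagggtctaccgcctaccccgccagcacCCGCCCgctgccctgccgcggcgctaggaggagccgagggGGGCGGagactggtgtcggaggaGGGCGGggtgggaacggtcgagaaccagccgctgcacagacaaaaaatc
Before the second TSS: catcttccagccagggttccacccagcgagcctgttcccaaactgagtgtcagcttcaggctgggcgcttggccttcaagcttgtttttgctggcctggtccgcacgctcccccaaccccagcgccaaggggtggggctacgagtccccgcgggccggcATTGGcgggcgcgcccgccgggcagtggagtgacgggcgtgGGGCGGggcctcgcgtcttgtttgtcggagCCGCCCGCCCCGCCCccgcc

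The GC content was 70.0% before the first and 71.2% before the second TSS. A CCAAT box was in the central 300 bp of 27.9% of all promoter DHS and of 7 of the 19 promoter DHS of the 10 genes, 4 of them those of Sesn1. The strongest distal DHS of Sesn1, with a score of 103, was in an intron 6432 bp downstream of the second TSS and held an element with 2 mismatches. A further element with 2 mismatches was in a DHS with a score of 38.0 in an intron of Armc2. The overlapping pair with 1 mismatch, also in an intron of Armc2, lay 2266 bp from the nearest DHS.

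Sesn2 (ENSMUSG00000028893.8, minus strand of chromosome 4) had 3 promoter DHS. The one over the TSS, within 1 kb of a TSS of Gm12981, had a score of 246, and one 352 bp upstream had a score of 44.5. The strongest was centred 4436 bp upstream, at 1263 bp of width and a score of 446, which was higher than 99.9% of the list. It was in the promoter window by distance alone and covered no TSS of Sesn2. Its central 300 bases, at chr4:132070702-132071001, held the short core AGGGGGCGC of the motif of CTCF, a protein that binds insulators and loop anchors. The core, in capitals, was searched after this sequence had been seen.
Sesn2, chr4:132070702-132071001: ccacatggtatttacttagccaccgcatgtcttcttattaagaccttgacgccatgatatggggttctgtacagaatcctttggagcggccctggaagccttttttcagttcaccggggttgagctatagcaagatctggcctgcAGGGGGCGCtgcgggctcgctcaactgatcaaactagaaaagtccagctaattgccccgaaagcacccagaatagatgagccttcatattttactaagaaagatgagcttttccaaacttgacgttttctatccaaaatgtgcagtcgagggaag

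The core was in the central 300 bp of 1.39% of all promoter DHS and of 2 of the 19 here, the other being a DHS of Gdf15. A longer CTCF word, which can overlap the core, was in 0 of the 19 and in 1.84% of all promoter DHS. None of the 5 elements around Sesn2 was in a DHS or in the promoter window. Beside its own promoter, the window of Sesn2 held 5 DHS at the promoters of Med18, Atpif1 and Dnajc8, with scores from 23.2 to 161, and 1 distal DHS with a score of 41.6.

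Phlda3 encodes a pleckstrin homology protein that opposes the kinase Akt at the membrane. The gene (ENSMUSG00000041801.5) lies on the plus strand of chromosome 1. It had the weakest promoter of the 10, with 1 DHS of 1118 bp centred 146 bp downstream of the first TSS. The score of 30.4 was just below the median of the list and higher than the top score of 6.57% of genes with a CpG-rich promoter and a promoter DHS. The sequence around its TSS had the highest GC content of the 10, at 69.8%. In the window of 12 DHS, the strongest were at the promoter of Csrp1, with scores up to 103, and the strongest distal one had a score of 39.5 at 13226 bp upstream. Neither of the 2 elements without spacer around Phlda3 was in a DHS or in the promoter window. With a spacer allowed, Phlda3 had 12 elements, of which 11 were outside every DHS, among them 2 without mismatch. The other, with a spacer of 3 bases and 1 mismatch, was in a distal DHS with a score of 33.5.

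Zmat3 encodes a zinc finger protein that binds RNA and acts on splicing and mRNA stability. The gene (ENSMUSG00000027663.6) lies on the minus strand of chromosome 3. A DHS of 1738 bp with a score of 74.2 covered all 3 of its TSSs and the nearby start of the noncoding gene 4930429B21Rik. The element without mismatch lay in an intron 1337 bp downstream of the first TSS and 515 bp beyond the nearest DHS. It is shown with 40 bases on either side, at chr3:32263213-32263312, and the element in capitals.
Zmat3, chr3:32263213-32263312: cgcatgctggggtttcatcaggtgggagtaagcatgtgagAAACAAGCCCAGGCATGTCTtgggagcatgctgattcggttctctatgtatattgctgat

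A second element, with 1 mismatch, was 4483 bp upstream and 3547 bp from the nearest DHS. Both elements of Zmat3 were thus in its promoter window and outside its DHS. The 4 distal DHS had scores of at most 33.1. The promoter of Pik3ca, at 31059 bp upstream, had a DHS with a score of 169.

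Gdf15 encodes a secreted ligand of the TGF-beta family that is released by stressed cells and acts on a receptor in the hindbrain. The gene (ENSMUSG00000038508.7, minus strand of chromosome 8) was the 1 member of the 10 without a DHS over a TSS. Its promoter window was reached by 3 DHS, at 4499 bp and 3099 bp upstream with scores of 21.6 and 83.7, and at 2426 bp downstream of the first TSS with a score of 209. The last was 1919 bp wide, with 782 bp in exons, and reached past the end of the gene, which is 3064 bp long. In the window of 1 kb on each side of a TSS there was none. An element with 1 mismatch lay in an exon 480 bp downstream of the first TSS, in the stretch between these DHS and 976 bp from the nearest. The window of Gdf15 had the most DHS of the 10, with 19 and a coverage of 18.4%. Of these, 8 were at promoters of other genes, among them a DHS of 4215 bp with a score of 209 nearest to Ssbp4 and one with a score of 175 at Lsm4. The 8 distal DHS had scores of at most 54.7.

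**Figure D3:**
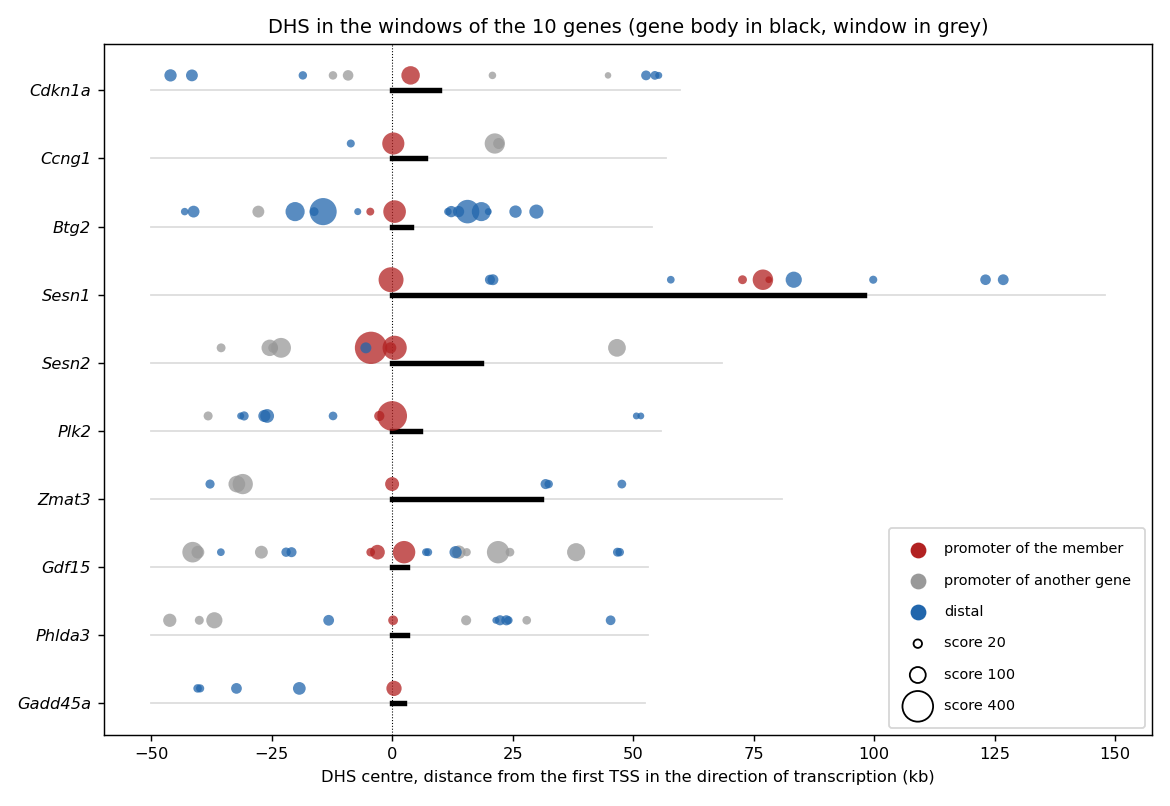
All 105 DHS in the windows of the 10 genes, placed by the distance of their centre from the first TSS in kb (horizontal axis), with the area of a circle growing with the authors' score and its colour giving the class. Large distal circles stand on both sides of Btg2, and the windows of Sesn2 and Gdf15 hold many DHS of other promoters.

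The DHS away from the promoters were then compared over the 10 genes. Of the 105 DHS, 58 were distal, 28 were at the promoter of another gene and 19 at the promoter of the member. At least 1 distal DHS was present in all 10 windows, as in 59.6% of protein-coding genes. The number of distal DHS ran from 1 at Ccng1 and Sesn2 to 14 at Btg2, with a median of 6, against a median of 1 over all protein-coding genes. The number of all DHS per window had a median of 10.5 against 5 and exceeded it in 8 genes, Ccng1 and Gadd45a being the others. Windows ran from 102 kb to 198 kb, and the median over all genes was 115 kb. Distal DHS of the 10 genes had a median score of 28.5, close to the 24.3 of all 24945 distal DHS, and a median width of 533 bp, against 602 bp. Their centres were intergenic in 32, in introns in 24 and in exons in 2. The nearest TSS was that of the member for 26 of the 58, and the others lay nearer to the TSS of another gene. The GC content had a median of 47.6% at distal and 54.1% at own promoter DHS, against 47.2% and 52.8% over the list.

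**Figure D4:**
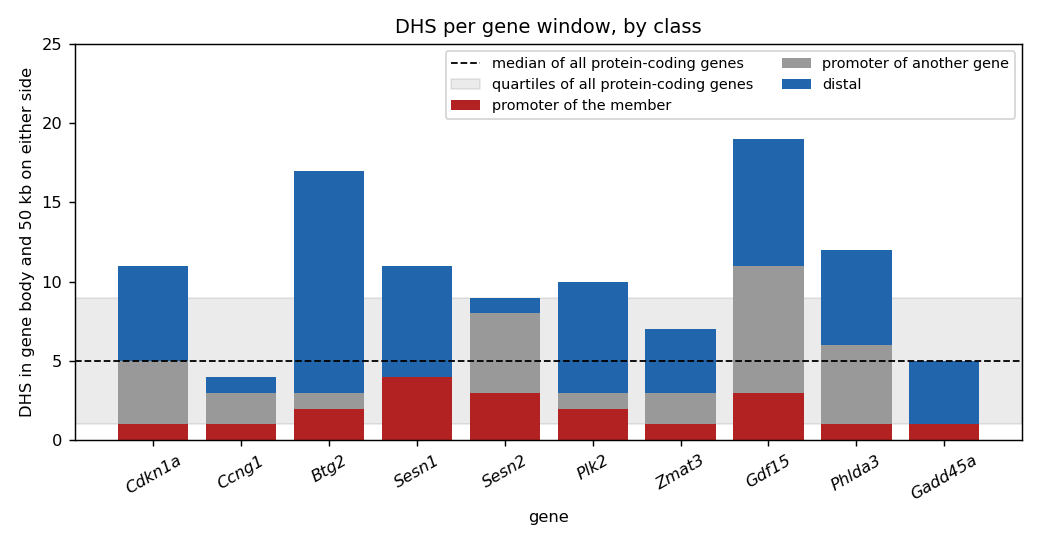
Number of DHS per window (vertical axis) for each of the 10 genes, stacked by class, with the median of 5 and the quartiles of 1 and 9 over all protein-coding genes as a dashed line and a grey band. Btg2 with 17 and Gdf15 with 19 stand highest, and Ccng1 with 4 stands below the median.

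The elements without spacer in the promoter windows were considered apart. An element was present there in 5 of the 10 genes, namely Cdkn1a, Ccng1, Plk2, Zmat3 and Gdf15, against 11.1% of protein-coding genes. With at most 1 mismatch these were 4 genes, without Plk2, against 1.94%. The 5 promoter windows held 8 elements, of which 3 were inside a DHS, at Ccng1 and Plk2. An element in a DHS of the promoter window was thus found in 2 of the 10 genes, against 1.07% of protein-coding genes. At Cdkn1a, Zmat3 and Gdf15 each element in the promoter window lay outside every DHS, at distances from 515 bp to 3547 bp from the nearest.

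Other p53 target genes and paralogs of the 10 genes were set beside them. Of 22 other targets, 21 had a promoter DHS and the same number a DHS over a TSS. Perp, a gene of epithelial adhesion and cell death, was without one. The highest top scores among them were 447 at Tob1, another antiproliferative gene, 373 at Bbc3, which encodes the death inducer Puma, and 267 at Mdm2. Their median top score was 125, and their median number of distal DHS was 1.5. Of 17 paralogs 16 had a promoter DHS, with a median top score of 133 and a median of 2 distal DHS. Btg4 had none. Over all protein-coding genes the share was 57.0%. As with the 10 genes, most promoters of both lists were CpG-rich, a class with a promoter DHS in 85.5% of genes. Of 18 CpG-rich promoters of other targets 17 had a DHS, as did 12 of 12 among the paralogs. Of the promoters that were not CpG-rich, 4 of 4 and 4 of 5 had one, against 39.2%.

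Within families the order of scores varied. Gadd45a had the lowest top score of its family, at 90.7, against 307 at Gadd45b and 196 at Gadd45g. Ccng1 had 203 and Ccng2 448, the highest among the paralogs. Plk2 with 374 stood above Plk4 with 181, Plk3 with 111 and Plk1 with 71.2. Cdkn1a had 138, Cdkn1b 111 and Cdkn1c 24.4. Btg2 had 213, Btg1 192 and Btg3 137. Sesn3, with 234, was below Sesn1 and Sesn2. Phlda3 with 30.4 lay between Phlda1 with 191 and Phlda2 with 20.9. Zmat3 had 74.2, and Zmat1, Zmat2 and Zmat5 had 128, 82.3 and 97.7. Without replicates these differences have no error, and none can be called larger than the spread between libraries.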

How the data were processed

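DNase I hypersensitivity was measured in 1 library of splenic B cells, from which the authors had removed apoptotic cells on a Ficoll gradient, with 1 input library that was not used here. The deposited list gives position, name and score of each peak, and the score is the authors' value on a scale that is not stated. The submitters' processing notes name BWA 0.6.2, SAMtools and mm9. Peak names are of the MACS caller, whose version and settings for this library are not given in the sources used here, nor is the use of the input library. On NCBI build 37, which is mm9, 1 peak passed the end of chromosome 19 by 52 bp.

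Genes were taken from GENCODE release M1, on chromosomes 1 to 19 and X (47474 peaks). Windows were the gene body with 50 kb on either side. Promoter peaks overlapped 5 kb upstream to 2 kb downstream of any TSS by at least 1 bp, and distal peaks overlapped no promoter window. CpG-rich promoters had at least 55% GC and CpG at 0.6 or more of the frequency its C and G content gives, in the 1000 bp around the first TSS. Percentages beside counts are shares of protein-coding genes, elements or DHS treated alike. The words searched in the central 300 bp, on both strands, were the GC box (GGGCGG), the CCAAT box (CCAAT), the CRE (TGACGTCA), the AP-1 site (TGANTCA), the E-box (CACGTG), an Ets site (CCGGAAGT), a PU.1 site (GAGGAAGT), a CTCF word and its short core (AGGGGGCGC). The words were chosen after the positions of the DHS had been seen.

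Named are all 10 genes with their promoter DHS and highest distal DHS, elements with at most 1 mismatch or inside a DHS, and, of the other lists, genes without a promoter DHS (for non-B markers, those with one) and the 3 highest scores. The strong distal DHS of Btg2, the other DHS given and the scores of all paralogs were named after their values were seen. The erythroid marker list and some sequences are not reported here. The members and lists were chosen with earlier results of these data known. Scripts ran in Python 3.11.15 with numpy 2.4.6 and pysam 0.24.0 and were tested on simulated data.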

Additional observations from a re-analysis of the deposited data

How the results depend on the processing

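With 1 library the limits are the unknown depth and the absence of replicates. No paired analysis was possible because there is 1 DNaseI library. The number of DHS in the windows, 105, was 57 with a flank of 20 kb, 160 with a flank of 100 kb and 59 at or above the median score, by construction. The 58 distal DHS became 29 and 27 with a flank of 20 kb and at or above the median score. The 34 elements became 10 with at most 1 mismatch, 1 with none and 76 with a spacer of 0 to 15 bases and at most 1 mismatch. The 8 elements inside a DHS became 3 with at most 1 mismatch and 13 when peaks were extended by 500 bp. With the spacer and at most 1 mismatch, which changes both choices together, 8 of 76 elements or 10.5% were inside a DHS. This compares with 3 of 10 at the same mismatch limit without a spacer, which are part of the 8 of 76, and with 23.5% of the 34 elements. The other settings moved each count by less than 1.5 times. A promoter DHS was kept by 9 genes within 1 kb of the TSS, without Gdf15, by 9 at or above the median score, without Phlda3, and by 9 with the first TSS alone, without Cdkn1a. For the settings of 1 kb, the first TSS alone and extended peaks, no share over all protein-coding genes or elements is given. Those counts thus stand without a background. The settings for the lists of other targets and paralogs, and the count inside a DHS with the spacer, were added after the data were seen.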
